A study of Saccharomyces cerevisiae with 6 samples.

Results

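The phosphate-regulated genes described here are a named set of 10 budding yeast genes, out of 6002 protein-coding genes. They are the secreted acid phosphatase genes PHO5, PHO3, PHO11 and PHO12, the phosphate transporter genes PHO84 and PHO89, the vacuolar genes PHO8 and VTC3, and the regulatory genes PHO81 and SPL2. For each gene the 1000 bp upstream of the start codon and the gene body were read in anti-FLAG chromatin immunoprecipitation from 3 rpd3Δ samples (strain YHy17) and 3 WT samples (strain OAy1102). The rpd3Δ strain is labelled as lacking RPD3, the gene of a histone deacetylase, and the title of the series names Rpd3 together with the forkhead protein Fkh1, replication origins and the ribosomal DNA. The labels name neither the FLAG-tagged protein nor any other allele. Both strains grew in the rich medium YEPD at 23 °C and were stopped in G1 by the pheromone α-factor at about 5 nM (some 4 h), then fixed with 1% formaldehyde. Whether the 3 samples of a genotype were separate cultures is not stated, so errors and tests cover the spread of these samples only, and that spread may be technical. The genes were selected on measured values of this comparison, the higher signal at PHO5 and PHO3 in rpd3Δ among them, with their pathway relatives added. Differences between genotypes at these genes are therefore a description with errors and no p-values.

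The PHO pathway lets yeast respond to phosphate. When phosphate is plentiful, the cyclin-dependent kinase Pho85 with its cyclin Pho80 phosphorylates the transcription factor Pho4 and keeps it out of the nucleus. When phosphate is scarce, the inhibitor Pho81 blocks that kinase, and Pho4 acts with Pho2 to switch on secreted phosphatases, high-affinity transporters and genes of phosphate storage. The PHO5 promoter is a textbook case of a promoter whose positioned nucleosomes are removed on activation. PHO3, its neighbour and close relative, is known as the constitutive acid phosphatase gene, which phosphate starvation does not induce.

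Counts per sample summed to 4888453 to 6785491 in rpd3Δ and 3987250 to 5907739 in WT. The ribosomal DNA (rDNA) array took 54.8% to 62.3% of them in rpd3Δ and 36.3% to 48.4% in WT, and outside it the median was 7 to 12 counts per 50 bp bin, which limits precision within a gene. A read can be counted in several neighbouring bins, so counts are not read numbers and neighbouring bins are not independent. Levels are given in 2 forms. Scaled counts per bin are the mean count per 50 bp bin, set to a common library size. Signal over local background is that mean divided by the median bin of the surrounding 20 kb of the same sample. That median is taken over raw counts, so it moves in coarse steps. A small SD of a local background therefore does not measure its precision, and fold changes that use it share this limit. RPD3 itself (YNL330C, chromosome XIV, 18001 to 19302) had 0.121, 0.154 and 0.177 times the local background over its body in the rpd3Δ samples, against 1.09, 1.15 and 1.10 in the WT samples, so the libraries matched their genotype labels.

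PHO5, which encodes the main repressible acid phosphatase (YBR093C, chromosome II, 429548 to 430951, minus strand, build R64), had a higher signal over its whole body in rpd3Δ. The body had 27.8, 24.6 and 25.0 scaled counts per bin in the rpd3Δ samples, against 10.7, 9.62 and 10.8 in the WT samples. The genotypes lay far apart, and the samples within each were close together. The means were 25.8 ± 1.76 in rpd3Δ and 10.4 ± 0.661 in WT (SD, n = 3 each), and the log2 fold change was 1.32 (SE 0.103), rank 2 from the highest among 5983 gene bodies. Over local background the body had 2.65 ± 0.286 in rpd3Δ and 1.16 ± 0.0916 in WT, so that in WT it lay close to its surroundings. Among all gene bodies PHO5 stood at percentile 98.2 in rpd3Δ and at percentile 70.0 in WT.

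The difference at PHO5 was broad and not confined to 1 peak. In 28 of the 28 bins of its body the 3 rpd3Δ samples all lay above the 3 WT samples, beside 6.31% of all 50 bp bins with any count outside the rDNA. A run of 33 such bins in a row covered 1650 bp, from 199 bp before the start codon to 1450 bp after it, just past the end of the gene. Since neighbouring bins can share reads, these bins are not separate observations. With the body cut into 3 equal sections from start to end, the means were 28.7, 25.7 and 23.0 scaled counts per bin in rpd3Δ, against 12.04, 10.3 and 8.78 in WT. The means declined towards the end of the gene in both genotypes, while the log2 ratio of rpd3Δ to WT was 1.26, 1.31 and 1.39. Every sample was lower in the last section than in the first, but not all fell at each step. In rpd3Δ sample 3 the sections had 26.3, 29.3 and 18.8.

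Upstream of PHO5 (430952 to 431951) the difference faded with distance. The whole window had 26.5, 19.6 and 21.7 scaled counts per bin in the rpd3Δ samples and 12.6, 13.2 and 12.3 in the WT samples, again without overlap. The log2 fold change was 0.83 (SE 0.149), rank 10 from the highest of 5992 upstream windows. In the 250 bp next to the start codon the means were 33.5 ± 7.99 in rpd3Δ and 14.0 ± 0.738 in WT, and from 251 to 500 bp they were 23.5 ± 0.392 and 11.5 ± 1.48 (SD, n = 3 each). From 501 to 750 bp they were 16.7 ± 5.05 in rpd3Δ and 11.1 ± 1.75 in WT, and from 751 to 1000 bp 16.7 ± 2.05 and 14.2 ± 0.512. In the last 500 bp the samples of the genotypes overlapped. The highest upstream bin in rpd3Δ was centred 74.5 bp before the start codon with 39.8 ± 4.83 scaled counts, while the highest WT bin, 774.5 bp before it, had 16.6 ± 4.59. The local background of this window was higher in rpd3Δ too, at 10.3 ± 0.140 scaled counts per bin against 8.93 ± 0.153 in WT. Since it moves in coarse count steps, these SDs understate its error. With it as an offset the log2 fold change was 0.63 (SE 0.166). The rpd3Δ samples themselves differed in height: next to the start codon sample 1 had 42.7 scaled counts per bin, and samples 2 and 3 had 29.0 and 28.7.

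**Figure D1:**
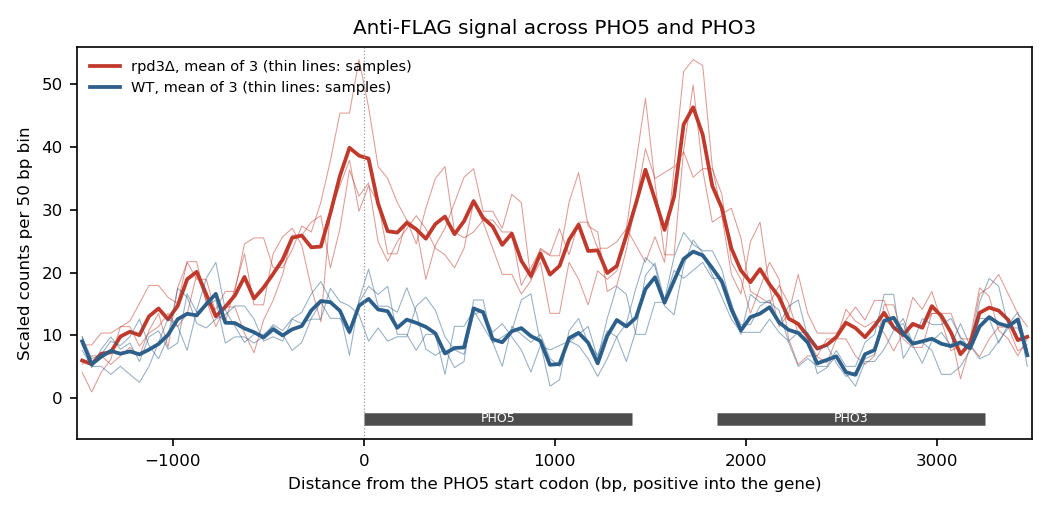
Anti-FLAG signal in scaled counts per 50 bp bin against the distance from the PHO5 start codon in bp, with thin lines for the samples, thick lines for the means of 3 rpd3Δ (red) and 3 WT (blue) samples, and bars for the gene bodies. The rpd3Δ mean is above the WT mean over all of PHO5 and between PHO5 and PHO3, with peaks of 39.8 before PHO5 and 46.3 before PHO3, and the means come closer about 1000 bp before PHO5 and along PHO3.

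PHO3 (YBR092C, chromosome II, 427698 to 429101, minus strand) follows PHO5 in the same direction, so its 1000 bp upstream window (429102 to 430101) takes in 554 bp of the PHO5 body and is not independent of it. That window had 32.2, 29.5 and 24.3 scaled counts per bin in the rpd3Δ samples and 14.2, 13.1 and 13.3 in the WT samples (log2 fold change 1.09, SE 0.159, rank 3 from the highest). No rpd3Δ sample overlapped a WT sample. Both genotypes had a peak between the genes, highest in the bin centred 124.5 bp before the PHO3 start codon, with 46.3 ± 9.83 scaled counts in rpd3Δ and 23.3 ± 2.61 in WT (SD, n = 3 each). The 250 bp next to the start codon had 39.5 ± 6.08 scaled counts per bin in rpd3Δ and 21.5 ± 2.19 in WT, and from 751 to 1000 bp, within PHO5, the values were 21.7 ± 3.37 and 7.89 ± 0.326. WT thus had a peak at this site too, and the ratio between genotypes was larger over the PHO5 stretch than at the peak.

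Over the PHO3 body the difference was smaller and shrank along the gene. The body had 13.5, 14.5 and 12.6 scaled counts per bin in the rpd3Δ samples and 10.5, 9.30 and 9.77 in the WT samples (log2 fold change 0.46, SE 0.115). All rpd3Δ samples were higher. By 3 equal sections the means were 19.1, 10.5 and 11.2 in rpd3Δ, against 13.1, 7.50 and 9.21 in WT, and in the last section the samples overlapped. Over local background the body had 1.27 ± 0.118 in rpd3Δ and 0.940 ± 0.0474 in WT. The local background itself was 10.7 ± 0.270 scaled counts per bin in rpd3Δ and 10.5 ± 0.289 in WT around PHO3, and 9.76 ± 0.531 and 8.93 ± 0.153 around PHO5. PHO5 and PHO3 are related in sequence, so reads from stretches they share cannot be given to one of them with certainty, and how the authors' counting treated such reads is not known here.

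PHO11 and PHO12, the other secreted acid phosphatase genes, are near-identical copies near chromosome ends, so reads cannot be told apart between them with certainty. Their sequence identity was not measured here, and within single samples the bin profiles of their bodies correlated by -0.31 to 0.31. PHO11 (YAR071W, chromosome I, 225460 to 226863, plus strand) lies 3.35 kb from the end of its chromosome and PHO12 (YHR215W, chromosome VIII, 552099 to 553502, plus strand) 9.14 kb. Both had a peak upstream in both genotypes, and neither had a body raised over its whole length in rpd3Δ as that of PHO5 was.

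Upstream of PHO11 (224460 to 225459) the rpd3Δ samples had 14.2, 12.1 and 10.5 scaled counts per bin, against 16.2, 17.6 and 16.7 in the WT samples. The rpd3Δ samples were all lower (log2 fold change -0.45, SE 0.139). The largest gap was 251 to 500 bp before the start codon, with 11.1 ± 2.55 in rpd3Δ and 19.1 ± 1.48 in WT (SD, n = 3 each). The local background was lower in rpd3Δ as well, at 4.79 ± 0.884 scaled counts per bin against 5.94 ± 0.386 in WT. Over local background the upstream window had 2.68 ± 0.956 in rpd3Δ and 2.84 ± 0.263 in WT with overlap, and with each sample's local background as an offset the log2 fold change was -0.092 (SE 0.170). Of the 282 bins around PHO11 36 were empty in all 6 samples, which lowers the local median.

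The PHO11 body had 11.4, 10.6 and 12.2 scaled counts per bin in the rpd3Δ samples and 11.6, 10.6 and 9.45 in the WT samples, and the genotypes overlapped. Its log2 fold change was 0.10 (SE 0.119), and 0.51 (SE 0.132) with the local background as an offset. Over local background it had 2.44 ± 0.514 in rpd3Δ and 1.69 ± 0.208 in WT, or 2.04 ± 0.198 and 1.44 ± 0.185 when the empty bins were left out of the median. How PHO11 compared between genotypes thus differed between these scales.

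Upstream of PHO12 (551099 to 552098) the samples overlapped, with 17.1, 15.9 and 11.97 scaled counts per bin in rpd3Δ and 19.5, 18.8 and 15.1 in WT (log2 fold change -0.25, SE 0.146). The PHO12 body had 16.3, 16.3 and 17.1 in the rpd3Δ samples and 12.8, 13.2 and 14.6 in the WT samples (0.30, SE 0.104), with all rpd3Δ samples higher. The higher values lay towards the end of the gene: the last of 3 equal sections had 23.5 ± 1.28 in rpd3Δ and 15.2 ± 1.23 in WT, while in the first, with 12.01 ± 0.284 and 14.1 ± 1.49, the rpd3Δ samples were lower (SD, n = 3 each). Since their copies cannot be separated with certainty, both genes were also read together: the bodies had 14.0 ± 0.608 scaled counts per bin in rpd3Δ and 12.04 ± 0.123 in WT, and the upstream windows 13.6 ± 2.21 and 17.3 ± 1.21. Read as a pair, the genes were thus higher over the body and lower upstream in rpd3Δ, without overlap of the samples in either window. Upstream the gap was narrow, with 15.6 in the highest rpd3Δ sample and 15.9 in the lowest WT sample. The pair was not set over local background.

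**Figure D2:**
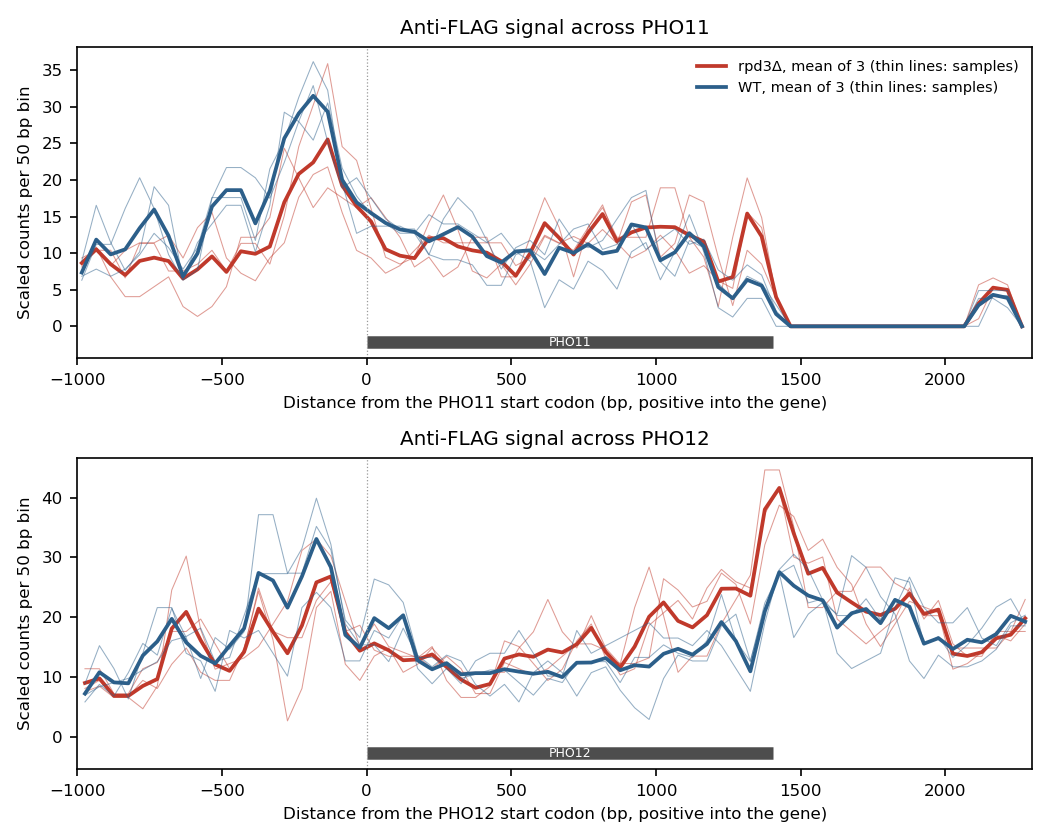
Anti-FLAG signal in scaled counts per 50 bp bin against the distance in bp from the start codons of PHO11 (top) and PHO12 (bottom), with thin lines for the samples and thick lines for the means of 3 rpd3Δ (red) and 3 WT (blue) samples. Both genes have a peak before the start codon in both genotypes (25.5 in rpd3Δ and 31.5 in WT at PHO11), rpd3Δ stands above WT towards the end of PHO12, and a stretch after PHO11 is empty in all samples.

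PHO84 encodes the high-affinity proton-coupled phosphate transporter (YML123C, chromosome XIII, 24037 to 25800, minus strand), and its body carried the highest signal of the 10 genes in both genotypes. The body had 33.0, 37.6 and 36.2 scaled counts per bin in the rpd3Δ samples, against 28.0, 28.3 and 28.5 in the WT samples. All rpd3Δ samples were higher (log2 fold change 0.33, SE 0.0805). Over local background it had 3.91 ± 0.105 in rpd3Δ and 2.85 ± 0.0454 in WT (SD, n = 3 each), percentile 99.4 and percentile 98.2 of all gene bodies. The local background was lower in every rpd3Δ sample, at 9.10 ± 0.523 scaled counts per bin against 9.92 ± 0.225 in WT. This widens the gap between genotypes on that scale. The mean signal grew along the gene: by 3 equal sections the means were 32.3, 35.4 and 39.4 scaled counts per bin in rpd3Δ, against 22.9, 29.6 and 32.7 in WT. Every sample was higher in the last section than in the first, but not all rose at each step. In rpd3Δ sample 3 the sections had 35.3, 30.8 and 43.0.

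Upstream of PHO84 (25801 to 26800) the genotypes overlapped, with 15.7, 13.7 and 10.5 scaled counts per bin in rpd3Δ and 16.1, 16.1 and 9.99 in WT. Sample 3 was the lowest of its genotype in both. The log2 fold change was -0.086 (SE 0.143), and 0.065 with the local background as an offset, so its sign was not settled. The RNA gene YNCM0001W on the opposite strand overlaps the PHO84 body and 778 bp of the upstream window, and these counts do not separate the strands.

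PHO89, which encodes the sodium-coupled phosphate transporter (YBR296C, chromosome II, 796798 to 798522, minus strand), was the only one of the 10 genes whose body was lower in every rpd3Δ sample than in every WT sample. The body had 12.5, 13.2 and 12.3 scaled counts per bin in the rpd3Δ samples and 18.7, 19.5 and 21.5 in the WT samples (log2 fold change -0.65, SE 0.0978, rank 73 from the lowest). Over local background it had 1.20 ± 0.0655 in rpd3Δ and 1.79 ± 0.0767 in WT (SD, n = 3 each), percentile 74.2 and percentile 93.1. In 17 of its 34 bins the rpd3Δ samples all lay below the WT samples and in 0 above, beside 6.57% of all bins outside the rDNA that were lower in this way. Here too neighbouring bins can share reads. The gap was widest in the middle of 3 equal sections, with 12.6 ± 2.25 scaled counts per bin in rpd3Δ and 22.7 ± 2.57 in WT.

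Upstream of PHO89 (798523 to 799522) the rpd3Δ samples had 10.8, 11.2 and 8.72 scaled counts per bin and the WT samples 13.4, 17.0 and 13.5 (log2 fold change -0.52, SE 0.136). The rpd3Δ samples were all lower. The 250 bp next to the start codon had 13.1 ± 3.71 in rpd3Δ and 22.8 ± 2.09 in WT. From 251 to 500 bp the means were 9.25 ± 2.59 and 12.8 ± 6.25, and from 501 to 750 bp 9.57 ± 0.807 and 9.80 ± 1.33, both with overlap. From 751 to 1000 bp they were 9.02 ± 1.90 in rpd3Δ and 13.3 ± 1.43 in WT, again with all rpd3Δ samples lower. A run of 350 bp with all rpd3Δ samples under all WT samples spanned the start codon, from 228 bp before it to 121 bp after it. The gene lies 14.7 kb from a chromosome end, and its local background was 10.5 ± 0.251 scaled counts per bin in rpd3Δ and 11.1 ± 0.352 in WT, with overlap. Around the upstream window it was 10.4 ± 0.449 in rpd3Δ and 11.1 ± 0.352 in WT. With each window's own local background as an offset the log2 fold change was -0.57 (SE 0.0939) over the body and -0.41 (SE 0.152) upstream.

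**Figure D3:**
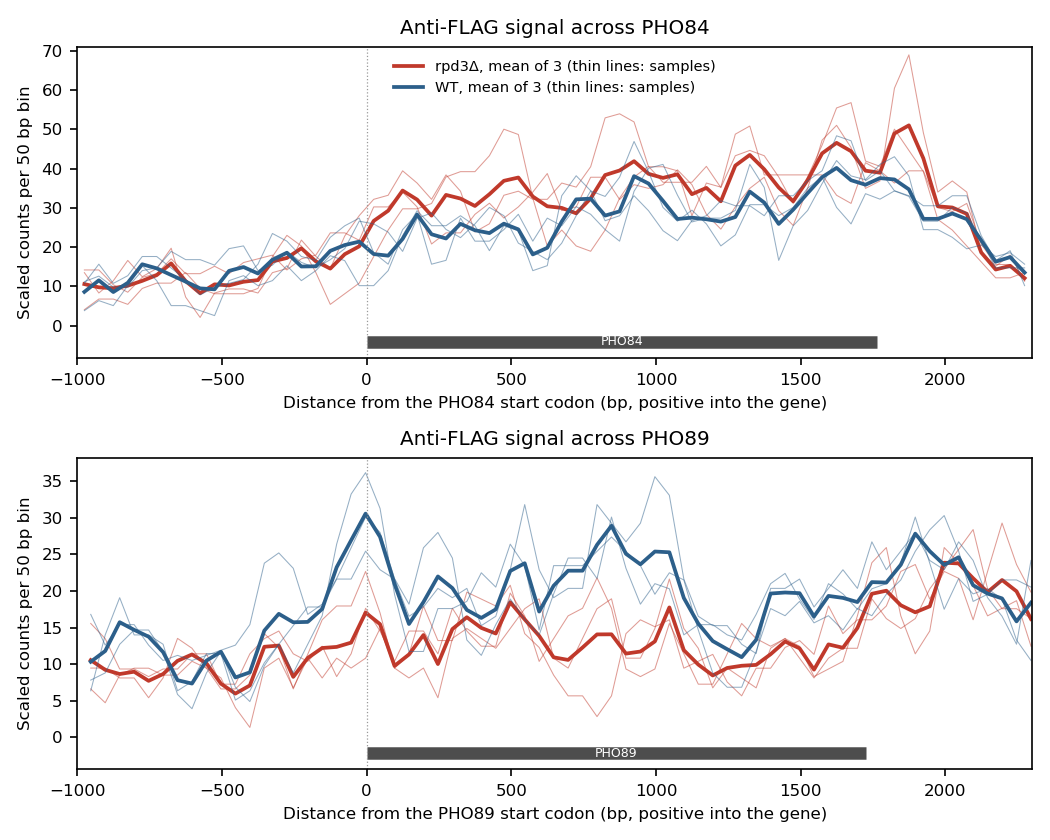
Anti-FLAG signal in scaled counts per 50 bp bin against the distance in bp from the start codons of PHO84 (top) and PHO89 (bottom), with thin lines for the samples and thick lines for the means of 3 rpd3Δ (red) and 3 WT (blue) samples. The rpd3Δ mean is above the WT mean along most of the PHO84 body (35.6 against 28.3 over the whole body) and below it along the PHO89 body (12.7 against 19.9).

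The vacuolar genes differed in the body and overlapped upstream. PHO8 encodes the vacuolar alkaline phosphatase (YDR481C, chromosome IV, 1418550 to 1420250, minus strand). Its body had 12.9, 12.6 and 12.1 scaled counts per bin in the rpd3Δ samples and 9.60, 9.88 and 8.46 in the WT samples (log2 fold change 0.42, SE 0.109), without overlap. Its local background was higher in rpd3Δ too, at 10.5 ± 0.251 against 9.17 ± 0.550 in WT, and with that background as an offset the log2 fold change was 0.23 (SE 0.104). Upstream of PHO8 (1420251 to 1421250) the means were 13.8 ± 2.01 in rpd3Δ and 11.2 ± 2.29 in WT (SD, n = 3 each).

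VTC3 encodes a subunit of the vacuolar transporter chaperone complex, which makes polyphosphate (YPL019C, chromosome XVI, 514511 to 517018, minus strand). Its body had 9.65, 9.50 and 10.03 scaled counts per bin in the rpd3Δ samples and 7.25, 8.18 and 7.61 in the WT samples (log2 fold change 0.34, SE 0.103). All rpd3Δ samples were higher, though both genotypes had low counts. Its upstream window (517019 to 518018) had means of 12.5 ± 0.904 in rpd3Δ and 13.9 ± 1.11 in WT. That window reaches 368 bp into CTF19, and its highest bin lay 557.5 bp before the VTC3 start codon in both genotypes.

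The regulatory genes differed from each other. PHO81, the inhibitor of the Pho80 and Pho85 kinase complex (YGR233C, chromosome VII, 954674 to 958210, minus strand), had 12.03, 13.0 and 11.9 scaled counts per bin over its body in the rpd3Δ samples and 12.4, 12.2 and 13.2 in the WT samples (log2 fold change -0.030, SE 0.0858). The genotypes overlapped there and upstream (958211 to 959210), where the means were 18.4 ± 1.99 in rpd3Δ and 19.5 ± 2.15 in WT (log2 fold change -0.082, SE 0.151). Both genotypes had more signal upstream than over the body, with 1.70 ± 0.262 times the local background upstream in rpd3Δ and 1.84 ± 0.218 in WT, and 1.13 ± 0.0278 and 1.20 ± 0.0670 over the body.

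SPL2 encodes a small protein that lowers low-affinity phosphate uptake when phosphate is scarce (YHR136C, chromosome VIII, 374654 to 375100, minus strand), and its short body holds 9 bins. It had 13.3, 10.8 and 14.3 scaled counts per bin in the rpd3Δ samples and 7.39, 9.49 and 8.90 in the WT samples. All rpd3Δ samples were higher, but with 63 to 127 raw counts per sample the log2 fold change of 0.57 had the largest SE of the 10 bodies, 0.193. Over local background the body had 1.41 ± 0.220 in rpd3Δ and 0.866 ± 0.107 in WT. That background was lower in every rpd3Δ sample, at 9.10 ± 0.523 scaled counts per bin against 9.92 ± 0.225 in WT, which widens this gap. Upstream of SPL2 (375101 to 376100) the means were 10.7 ± 0.711 scaled counts per bin in rpd3Δ and 11.1 ± 1.05 in WT (SD, n = 3 each), with overlap.

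**Figure D4:**
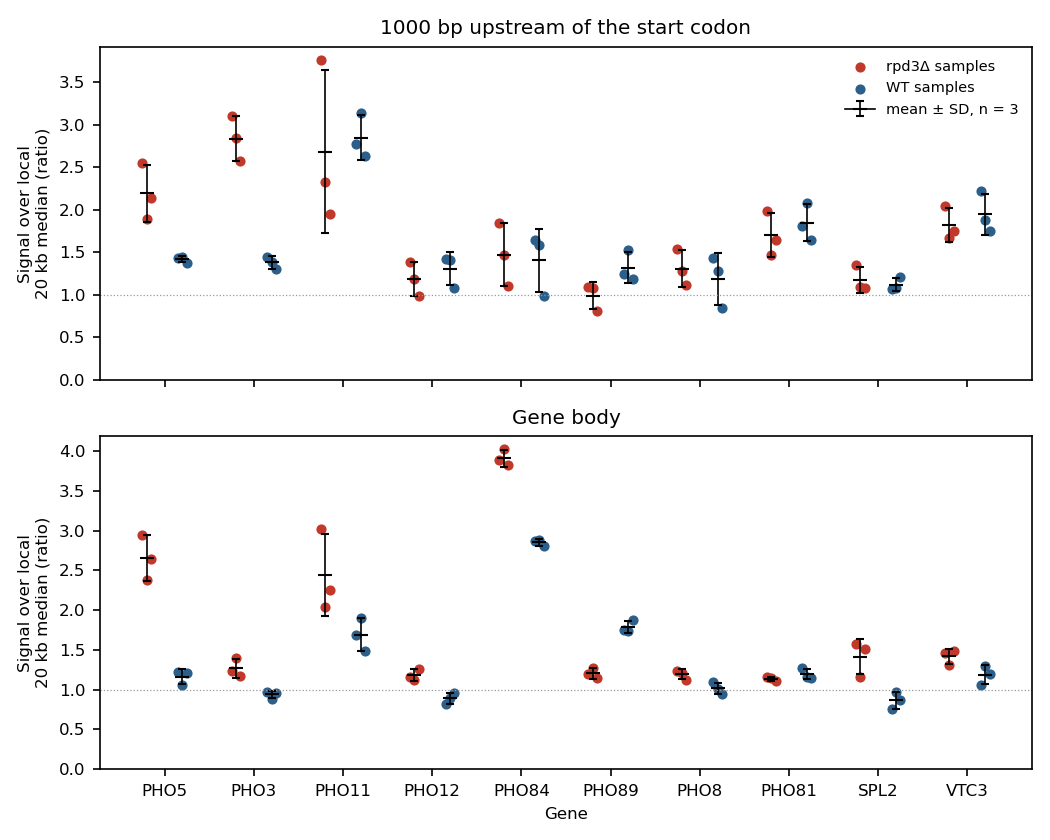
Signal over the local 20 kb median (a ratio) for the 10 genes, upstream (top) and over the gene body (bottom), with red points for the 3 rpd3Δ samples left of the blue points for the 3 WT samples and black marks for the mean and SD. PHO84 has the highest body in both genotypes, and the rpd3Δ bodies of PHO5 (2.65 against 1.16) and PHO84 (3.91 against 2.85) lie well above their WT bodies.

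Set side by side, body signal over local background in rpd3Δ was highest at PHO84, followed by PHO5 and PHO11, whose samples overlapped each other. The other 7 genes ran from 1.13 at PHO81 to 1.42 at VTC3, and each of them overlapped its neighbours in that order. In WT PHO84 was again highest, followed by PHO89 and PHO11, whose samples overlapped, and the other 7 genes ran from 0.866 at SPL2 to 1.20 at PHO81, again with overlap between neighbours. The overlap of PHO11 with PHO5 in rpd3Δ and with PHO89 in WT rests on the empty bins around PHO11. With them left out its samples had 2.01, 1.86 and 2.25 in rpd3Δ and 1.48, 1.60 and 1.24 in WT. These were all below those of PHO5 in rpd3Δ and of PHO89 in WT, while the place of PHO11 in the order of means stayed the same. The median over the 10 bodies was 1.34 in rpd3Δ and 1.17 in WT, beside 1.01 and 0.998 over all 5978 bodies with a local background. Upstream it was 1.59 in rpd3Δ and 1.39 in WT, beside 1.11 and 1.14.

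Across all genes the difference between genotypes was tested with edgeR (quasi-likelihood), and a window was called where its Benjamini-Hochberg adjusted p was under 0.05. Upstream, 4 of the 10 genes were called, beside 6.21% of all windows. PHO5 and PHO3 were the 2 called higher, beside 1.94% of all windows, and PHO11 and PHO89 the 2 called lower, beside 4.27%. Over the body 6 were called, beside 7.35% of all bodies. PHO5, PHO3, PHO84, PHO8 and VTC3 were the 5 called higher (4.28% of all bodies) and PHO89 the 1 called lower (3.08%). Over only 500 bp upstream 3 were called, PHO3 and PHO5 higher (0.451% of all windows) and PHO89 lower (1.24%), in all 1.69% of windows. Counted without a test, upstream the rpd3Δ samples all lay above the WT samples at 2 of the 10 genes (8.78% of all windows) and all below at 2 (14%). Over the body they lay above at 7 (13.9%) and below at 1 (10.1%). Since the genes were chosen with this comparison known, nothing is read from these counts.

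The median log2 fold change was -0.084 over the 10 upstream windows and 0.33 over the 10 bodies, beside -0.044 and 0.011 over all windows. The calls rested in part on single samples. Upstream they came to 2 (PHO5 and PHO3) without rpd3Δ sample 3 or without WT sample 2. Over bodies they came to 2 (PHO5 and PHO89) without rpd3Δ sample 2. Calls over all genes changed as well. With all samples 116 of 5992 upstream windows were called higher and 256 lower. Without rpd3Δ sample 3 it was 122 and 197, and without WT sample 2 it was 26 and 80. Of 5983 bodies 256 were called higher and 184 lower, and 121 and 90 without rpd3Δ sample 2. With the local background as an offset 1 upstream call was left, that of PHO3. Among the bodies PHO8 and VTC3 were then no longer called, while PHO11 and PHO12 were called higher. Under this offset few windows were called among all genes. Of 5988 upstream windows 4 were called higher and 8 lower, and of 5978 bodies 52 were called higher and 58 lower.

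**Figure D5:**
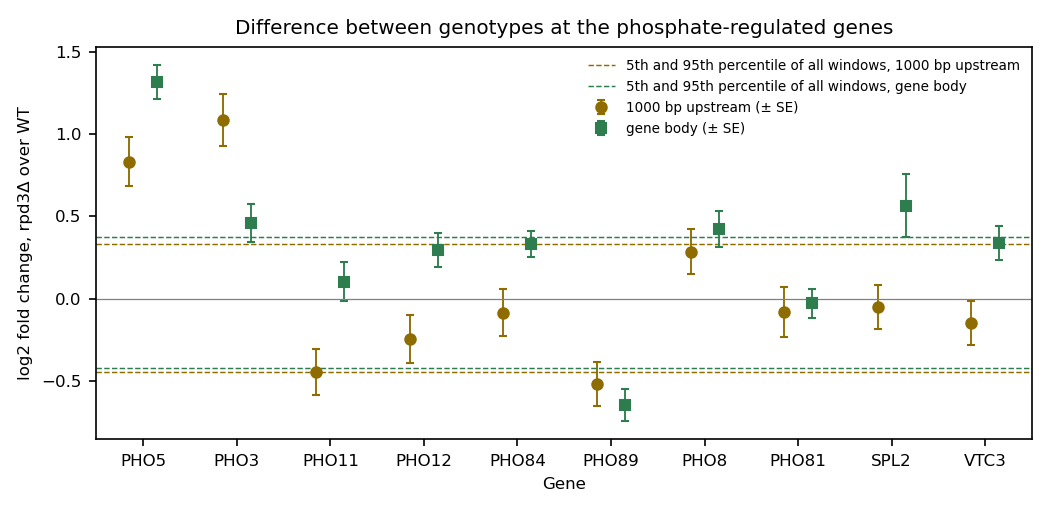
The log2 fold change of rpd3Δ over WT with its SE for the 1000 bp upstream (circles) and the body (squares) of the 10 genes, with dashed lines at the 5th and 95th percentile of all windows of each kind. The bodies of PHO5, PHO3, PHO8 and SPL2 lie above the upper line for bodies (0.37), and the body of PHO89 lies below the lower one (-0.42).

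Another 28 genes of the pathway were read in the same fit, among them the regulators PHO4, PHO2, PHO80 and PHO85, the low-affinity transporters PHO87, PHO90 and PHO91, the other VTC subunits and the polyphosphatases PPX1 and PPN1. Upstream, 1 fell (4.27% of all windows) and 0 rose (1.94%) by edgeR, DESeq2 called 0, and 6 had an unadjusted edgeR p under 0.05 in either direction, beside 19.5% of all windows. The one that fell was GIT1, which encodes a transporter of glycerophosphoinositol (upstream window on chromosome III, 298606 to 299605). It had 8.93, 7.31 and 5.54 scaled counts per bin in the rpd3Δ samples and 10.4, 10.5 and 9.35 in the WT samples (log2 fold change -0.46, SE 0.148, edgeR adjusted p = 0.0401). All 3 rpd3Δ samples were lower, but so was their local background, at 6.53 ± 0.277 against 7.72 ± 0.0953 in WT (SD, n = 3 each). GIT1 was not called without rpd3Δ sample 2 or 3 or without WT sample 1 or 2, nor under DESeq2, with TMM over the windows themselves, over 500 bp, with either pair of samples summed, or with the local background as an offset (-0.22, SE 0.156). Upstream of VIP1, which encodes an inositol pyrophosphate kinase and is named here after its values were seen, the rpd3Δ samples had 11.8, 14.7 and 11.6 scaled counts per bin and the WT samples 9.29, 9.17 and 11.0 (log2 fold change 0.39, SE 0.134, edgeR adjusted p = 0.0651). It was called higher with TMM over the windows (adjusted p = 0.0223), without rpd3Δ sample 1 or 3 and without WT sample 3, and the adjusted p was 0.671 with the local background as an offset. Its local background was 13.4 ± 0.162 in rpd3Δ and 11.9 ± 0.772 in WT.

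Over the body 1 of the 28 rose (4.28% of all bodies) and 0 fell (3.08%) by edgeR and by DESeq2, and 7 had an unadjusted edgeR p under 0.05 in either direction, beside 20.9% of all bodies. The one that rose was VTC5, which encodes a further subunit of the polyphosphate-making complex (chromosome IV, 622112 to 624721). It had 16.3, 14.9 and 14.8 scaled counts per bin in the rpd3Δ samples and 12.3, 10.6 and 12.2 in the WT samples (log2 fold change 0.39, SE 0.0930, edgeR adjusted p = 0.00467), higher in 3 of 3 rpd3Δ samples. The call was lost without WT sample 2. The median log2 fold change of the 28 genes was -0.039 upstream and 0.020 over the body, close to the medians of all windows.

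Genes whose bodies reach into the upstream windows were read as well, since their signal enters those windows. YHR214C-E (beside PHO12), YML122C (beside PHO84), CWC21 and KRE2 (beside PHO8), ARO9 (beside SPL2) and CTF19 (beside VTC3) had log2 fold changes over their bodies of -0.21 to 0.34, with edgeR adjusted p-values of 0.347 to 0.849, so none passed.

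The upstream windows whose signal over local background came nearest to that of PHO5 over the 6 samples were those of GSY2, THI7, FTH1, AFT1 and YJL077W-B, at Euclidean distances on the log2 scale of 0.34, 0.38, 0.40, 0.44 and 0.45. GSY2 (chromosome XII, 659716 to 660715) had 2.02 ± 0.507 times its local background in rpd3Δ and 1.503 ± 0.00269 in WT, beside 2.19 ± 0.335 and 1.42 ± 0.0359 at PHO5 (SD, n = 3 each). GSY2 and THI7 lie on chromosome XII, which also carries the rDNA.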

How the data were processed

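Per the submitters' processing notes, the authors used Bowtie2, SAMtools and bedtools with build R64; their versions and their handling of duplicate or multiply matching reads are not known here. The deposited values are raw counts per 50 bp bin (241434 bins on 16 chromosomes), and no input library was used. A bin belongs to the window that holds its midpoint. Windows of all protein-coding genes came from the RefSeq table of R64, with strand taken from locus tags, and those inside the rDNA (chromosome XII, 451575 to 468931) were dropped. Counts were summed per window, a mean of at least 10 counts was required (all 10 members passed), and library size was TMM over 1196 bins of 10 kb. Bins of 10 kb that overlap the rDNA, RPD3 or BAR1 were left out of this scaling, though the labels name no BAR1 allele. Genotypes were compared with edgeR 4.0.16 (quasi-likelihood, no covariate, R 4.3.3), tested on simulated data, with DESeq2 1.42.0 as an alternative; SE is |log2 fold change| divided by the root of F. Tables and figures used Python 3.11.15. Other alternatives were scaling, the local background as an offset, window length, samples left out or summed, and the replicate number as a block.

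The members and lists were chosen with earlier results of these data known. Named are all 10 members, RPD3, genes overlapping member windows, other pathway genes past the threshold (up to 4 a window) and the 5 upstream windows nearest to PHO5. PHO88 appears in the gene table as SND3. In bins 500 bp apart, summed to 10 kb, WT samples 1 and 2 (chi-square per degree of freedom 1.14, p = 0.000526) and rpd3Δ samples 2 and 3 (1.12, p = 0.00209) were closer than the other pairs of a genotype (2.39 to 3.44) but differed beyond the counting error of independent reads. Duplicate reads, if kept, would have the same effect, so the labels alone make them separate samples, and each pair was also summed as an alternative. Planned sequence and motif comparisons were not analysed here.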

Additional observations from a re-analysis of the deposited data

How the results depend on the processing

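Of 290 log2 fold changes of the 10 genes under other settings, 250 kept their direction and side of the threshold, 27 fell short of it, 4 newly passed and 9 changed sign, all of these at PHO84, PHO81 or SPL2. The PHO5 body ran from 1.20 to 1.35 and the PHO89 body from -0.69 to -0.57. Sign changes came with the local background as an offset (PHO84 upstream 0.065, SPL2 upstream 0.077) and over 500 bp (SPL2 0.025). With 1 sample left out, PHO84 upstream ran from -0.27 to 0.048, PHO81 upstream from -0.18 to 0.014, SPL2 upstream from -0.11 to 0.020 and the PHO81 body from -0.073 to 0.0018. Among the 10 genes the 4 upstream calls became 1 with that offset and 2 to 4 with 1 sample left out, and 3 (PHO11 lost) with WT samples 1 and 2 summed or rpd3Δ samples 2 and 3 summed; the 6 body calls became 5 (VTC3 lost) with either sum and 2 to 6 with 1 sample left out. Among the other pathway genes the 1 upstream call (GIT1) became 0 under DESeq2, that offset, 500 bp windows, WT samples 1 and 2 summed and rpd3Δ samples 2 and 3 summed (added after the data were seen), and 0 to 2 with 1 sample left out, with VIP1 in 3 of these; with TMM over the windows VIP1 was the 1 call in its place. The 1 body call became 0 to 1. Over all genes, 116 upstream windows were called higher and 256 lower. It was 226 and 210 with TMM over the windows themselves and 4 and 8 with the offset. With 1 sample left out it was 26 to 122 higher and 80 to 362 lower. With WT samples 1 and 2 summed it was 45 and 128, and with rpd3Δ samples 2 and 3 summed 98 and 192. Of the bodies 256 were called higher and 184 lower, and 52 and 58 with the offset. With 1 sample left out it was 121 to 316 higher and 90 to 199 lower. With the same 2 sums it was 153 and 120, and 191 and 158. Of 300 levels over local background 67 moved past their spread. The cause of these changes was not tested.

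With the replicate number as a block, 4 upstream windows and 7 bodies of the 10 genes were called. Of the other pathway genes 3 upstream windows and 1 body were called. Calls over all genes were also more frequent than without the block. Of 5992 upstream windows 184 were called higher and 360 lower, and of 5983 bodies 350 were called higher and 226 lower. The replicate numbers do not pair the samples. Over upstream windows the deviations of same-numbered samples correlated by 0.14, -0.048 and 0.25. There rpd3Δ sample 1 correlated best with WT sample 2 (0.22).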
